A study of Homo sapiens with 49 samples.

Results

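The 32 genes described here are AGR2 and 31 genes of the unfolded protein response and of protein folding in the endoplasmic reticulum (ER). They were taken from a list of gene symbols, with 1 probe set per gene, the one of highest mean over all 49 arrays. All 32 symbols were found, and all 32 passed the filter on low values (a log2 level above 4 on at least 6 arrays), out of 11075 genes tested. The genes were measured in Ishikawa cells, a line from a human uterine epithelial adenocarcinoma, after 72 h with ethinyl estradiol (EE), a synthetic estrogen, or with ethanol as vehicle. RNA of each sample was hybridized to 1 Affymetrix expression array.

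There were 6 vehicle arrays, 6 arrays each at 0.1, 1, 3, 10, 100 and 1000 pM EE, and 7 arrays at 0.3 pM EE. All groups shared the ethanol solvent, phenol red-free medium with CSS, and daily renewal of a part of the treatment medium. All cells were of 1 line. No label gives the culture a replicate came from, so p-values reflect the spread among the arrays of a group, which could be technical only.

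The unfolded protein response adjusts the folding capacity of the ER to the load of new secreted and membrane proteins. Its sensors in the ER membrane are the proteins encoded by ERN1 (IRE1), EIF2AK3 (PERK) and ATF6, which act through spliced XBP1, through ATF4 and DDIT3 (CHOP), and through the cleaved form of ATF6 itself. Their target genes encode chaperones, disulfide isomerases and components of ER-associated degradation, which removes misfolded proteins. AGR2 is a member of the disulfide isomerase family made by secretory epithelia, is required for mucin production in the mouse intestine, and is known as an estrogen-induced gene in breast cancer cells. The arrays measure the total message of each gene, not XBP1 splicing, ATF6 cleavage or protein.

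The promoters of the genes hold known motifs of this response, which are shown here so that the levels can be read by motif. Sequences are RefSeq's of GRCh38.p14, the 250 bases before an annotated start, and were found for 31 of 32 genes. PDIA3 was not matched. For 8 genes with several listed starts the first listed was used, which need not be the outermost. For ASNS and CANX the window lies inside the annotated span of the gene (chr7:97851677-97928441 and chr5:179678656-179731641). Both strands were searched, and overlapping matches of different motifs were each counted. The ER stress element (ERSE), spelled CCAAT, 9 bases of any kind and CCACG, and bound by ATF6 and XBP1 together with NF-Y, was in 6 of 31 promoters (19.4%), against 0.074% of all 35116 RefSeq promoters. The second form, ERSE-II, spelled ATTGG, any base and CCACG, was in 3 of 31 (9.68%), against 0.0513% of all. The matches are printed with the fixed letters in capitals, each on the strand on which it reads as spelled.
XBP1 at chr22:28800603-28800621: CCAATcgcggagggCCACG
HSPA5 at chr9:125241391-125241409: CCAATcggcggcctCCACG
CALR at chr19:12938384-12938402: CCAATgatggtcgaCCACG
CANX at chr5:179698778-179698796: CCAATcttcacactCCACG
CRELD2 at chr22:49918554-49918572: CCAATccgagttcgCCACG
HSP90B1 at chr12:103930216-103930234: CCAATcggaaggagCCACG
HSP90B1 at chr12:103930321-103930339: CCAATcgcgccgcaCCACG
HYOU1 at chr11:119057380-119057390: ATTGGaCCACG
SDF2L1 at chr22:21642114-21642124: ATTGGtCCACG
HERPUD1 at chr16:56932025-56932035: ATTGGgCCACG

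HYOU1 held the same ERSE-II stretch at both chr11:119057380-119057390 and chr11:119057274-119057284. The first of these overlapped a match to the XBP1-type element UPRE, spelled TGACGTGG, which 1 of 31 promoters held (3.23%, against 0.612% of all). The CARE element bound by ATF4 with C/EBP factors, spelled TGATGNAA, was in the promoters of HERPUD1, ASNS and CHAC1 (9.68%, against 3.14% of all). A palindromic estrogen response element, spelled GGTCA, any 3 bases and TGACC, was in 0 of 31 promoters, against 0.0399% of all. No match says only that these letters are not in this window.

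The promoters of HSPA5, the gene of the best-known target of the response, and of ASNS and AGR2, the genes called in the comparisons with vehicle, are printed in full, 5′ to 3′ on the gene's strand, with the ERSE of HSPA5 and the CARE of ASNS in capitals. They lie on the minus strand at chr9:125241344-125241593 (HSPA5), chr7:97872409-97872658 (ASNS) and chr7:16805000-16805249 (AGR2), where the AGR2 window held none of the 5 motifs.
HSPA5: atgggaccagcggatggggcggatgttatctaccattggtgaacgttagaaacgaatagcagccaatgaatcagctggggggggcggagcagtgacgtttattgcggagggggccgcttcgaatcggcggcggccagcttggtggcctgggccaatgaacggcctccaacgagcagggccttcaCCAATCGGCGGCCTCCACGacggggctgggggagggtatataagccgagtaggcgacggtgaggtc
ASNS: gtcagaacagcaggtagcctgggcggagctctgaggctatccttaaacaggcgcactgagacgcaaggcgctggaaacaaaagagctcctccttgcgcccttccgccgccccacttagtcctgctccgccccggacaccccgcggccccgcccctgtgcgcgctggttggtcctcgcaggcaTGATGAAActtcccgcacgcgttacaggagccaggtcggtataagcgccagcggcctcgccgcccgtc
AGR2: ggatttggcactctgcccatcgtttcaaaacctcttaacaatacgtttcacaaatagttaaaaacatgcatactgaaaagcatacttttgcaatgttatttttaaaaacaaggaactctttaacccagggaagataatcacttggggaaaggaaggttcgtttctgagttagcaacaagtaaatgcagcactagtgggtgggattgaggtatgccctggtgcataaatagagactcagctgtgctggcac

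The cells responded to EE and kept the markers of their type. At 1000 pM against vehicle the estrogen targets PGR, OLFM1 and GREB1 rose by 5.13, 4.30 and 2.63 on the log2 scale. All 7 epithelial markers were above the log2 level of 4 on all 49 arrays, whereas all 7 stromal, 6 immune and 4 endothelial markers lay at or below it on every array, with highest levels of 3.93, 2.82 and 3.30. On 4 arrays, which were by replicate number the fifth of vehicle, the second at 0.3 pM and the sixth at both 3 and 1000 pM, the 3′ minus 5′ difference of the beta-actin control probe sets, a sign of RNA quality, was 2.67 to 4.62, against 0.80 to 2.06 on the other 45. Deviations from the group means were larger on these 4 arrays over all genes tested, the genes described here included. Results are therefore given with and without these 4 arrays, whose part in the results was not tested.

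AGR2 was lower at the highest EE concentrations, and the counts of the 32 genes that passed were near the share over all genes. At 1000 pM, 2 of the 32 genes passed the test against vehicle (limma, adjusted p under 0.05 after Benjamini-Hochberg adjustment over all genes tested): AGR2 fell and ASNS, the asparagine synthetase induced by ATF4, rose. Of all genes, 7.21% passed, 2.88% higher and 4.33% lower. The same pair passed at 100 pM, where 10.1% of all genes did, 3.85% higher and 6.27% lower. At 0.1, 0.3, 1, 3 and 10 pM, 0 of 32 passed in limma, and 1, 2, 4, 0 and 3 had an unadjusted p under 0.05; of all genes, 0%, 0%, 0%, 0.153% and 0.858% passed. The comparisons with vehicle share the same 6 vehicle arrays. Without the 4 arrays of high beta-actin difference 5 of the 32 genes passed at 1000 pM, all lower, where 5.57% of all genes were lower. At 100 pM 4 passed without them, where 11% of all genes did.

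The median log2 difference over the 32 genes at 1000 pM was -0.03, beside -0.01 over all genes tested, and 19 of the 32 differences were below 0. The 95% intervals of the 30 genes that did not pass lay between -0.61, the lower bound of CALR, and 0.37, the upper bound of DNAJB11.

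**Figure D1:**
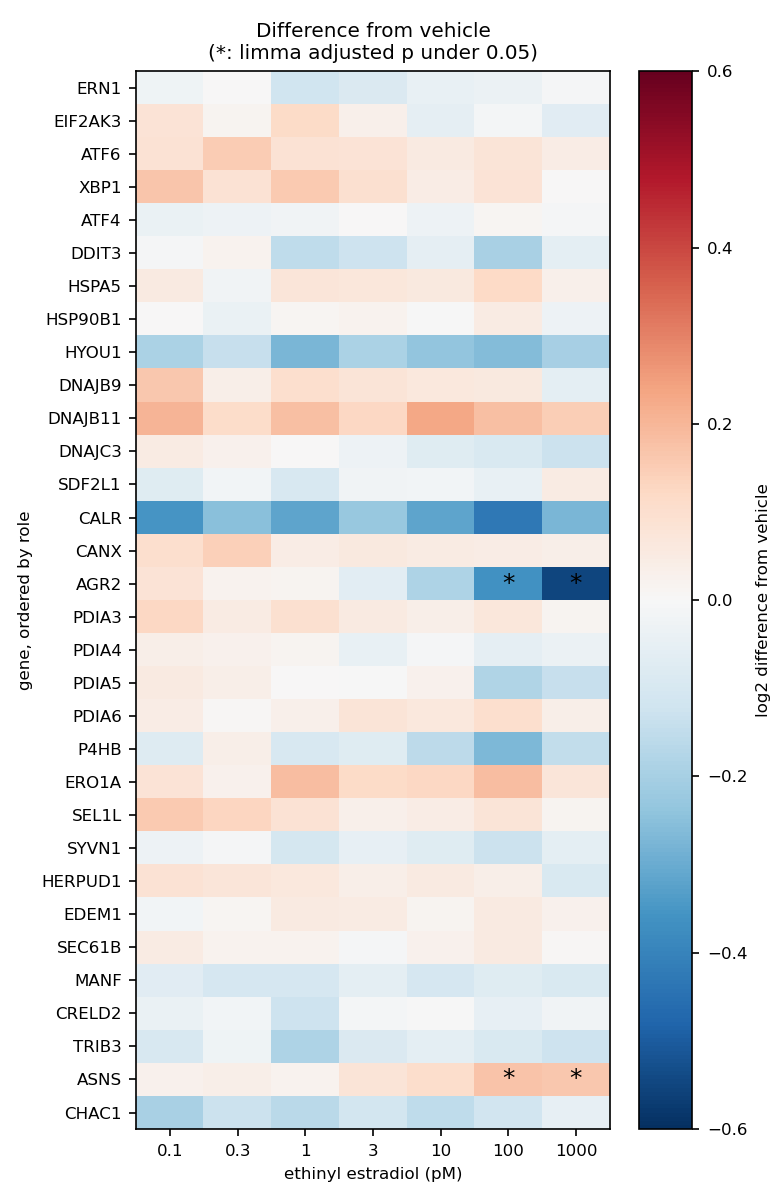
Log2 difference from the vehicle mean of the 32 genes (rows, ordered by role) at each EE concentration (columns, pM), with blue for lower and red for higher; stars mark a limma adjusted p under 0.05. Only AGR2 and ASNS carry stars, at 100 and 1000 pM, and the AGR2 difference reaches -0.55.

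AGR2 (gene at chr7:16791811-16804999, GRCh38.p14; 1 of its 2 probe sets passed the filter) had the largest difference of the 32 genes at 1000 pM. Its mean log2 level was 7.83 ± 0.15 in vehicle, 7.91 ± 0.19 at 0.1 pM, 7.85 ± 0.13 at 0.3 pM, 7.85 ± 0.19 at 1 pM, 7.76 ± 0.10 at 3 pM, 7.64 ± 0.13 at 10 pM, 7.47 ± 0.13 at 100 pM and 7.28 ± 0.21 at 1000 pM (SD, n = 6, or 7 at 0.3 pM). The lowest, median and highest arrays were 6.91, 7.35 and 7.51 at 1000 pM, and 7.32, 7.46 and 7.61 at 100 pM, against 7.61, 7.84 and 8.02 in vehicle. All 6 arrays at 1000 pM lay below all vehicle arrays, and so did all 6 at 100 pM, there by a margin smaller than the rounding. In these bulk samples fewer cells that express a gene and less RNA per cell cannot be told apart.

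The AGR2 difference from vehicle was -0.55 (SE 0.09, adjusted p = 1.48e-05 in limma) at 1000 pM, a ratio of 0.683. At 100 pM it was -0.36 (adjusted p = 0.00619), a ratio of 0.779. At 10 pM it was -0.19, with all 6 arrays below the vehicle mean, and did not pass (adjusted p = 0.384). No step between neighbouring concentrations passed for any of the 32 genes with all arrays, where 0.00903%, 0.153% and 0.984% of all genes did for 3 against 1 pM, 10 against 3 pM and 100 against 10 pM, and 0% for the other steps. The AGR2 differences were -0.12 for 10 against 3 pM, -0.17 for 100 against 10 pM and -0.19 for 1000 against 100 pM. Without the 4 arrays the difference at 1000 pM was -0.50 (adjusted p = 3.93e-05).

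A curve of slope 1 placed the midpoint of the AGR2 log2 change at 18.2 pM (95% interval 5.75 to 93.3), with a total change of -0.55. Without the 4 arrays the midpoint was 12.0 pM (4.37 to 42.7). With a free slope, fitted as 0.7, it was 30.2 pM (7.41 to 166). That interval was computed with the slope held at 0.7 and leaves out the uncertainty of the slope. For the progesterone receptor gene PGR the midpoint was 7.41 pM (5.89 to 9.33), inside the AGR2 interval.

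ASNS rose by a ratio of 1.12 at 1000 pM and 1.13 at 100 pM. Its lowest, median and highest arrays were 10.79, 10.89 and 11.09 at 1000 pM, and 10.81, 10.93 and 11.00 at 100 pM, against 10.69, 10.75 and 10.85 in vehicle. The groups overlapped in both comparisons, although all 6 arrays of each concentration lay above the vehicle mean. The difference was 0.16 (SE 0.05, adjusted p = 0.0253 in limma) at 1000 pM and 0.17 (adjusted p = 0.0165) at 100 pM. The curve midpoint was 5.62 pM (1.02 to 37.2). At 1000 pM the call was lost without the 4 arrays (0.12, adjusted p = 0.105), with quantile normalization (adjusted p = 0.142), with only the compared groups in the fit (adjusted p = 0.186), and when any 1 of 4 arrays was left out, replicates 3 and 6 at 1000 pM or replicates 2 and 3 of vehicle (adjusted p up to 0.0946). At 100 pM it was lost with quantile normalization (adjusted p = 0.100) and with only the compared groups (adjusted p = 0.0817).

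**Figure D2:**
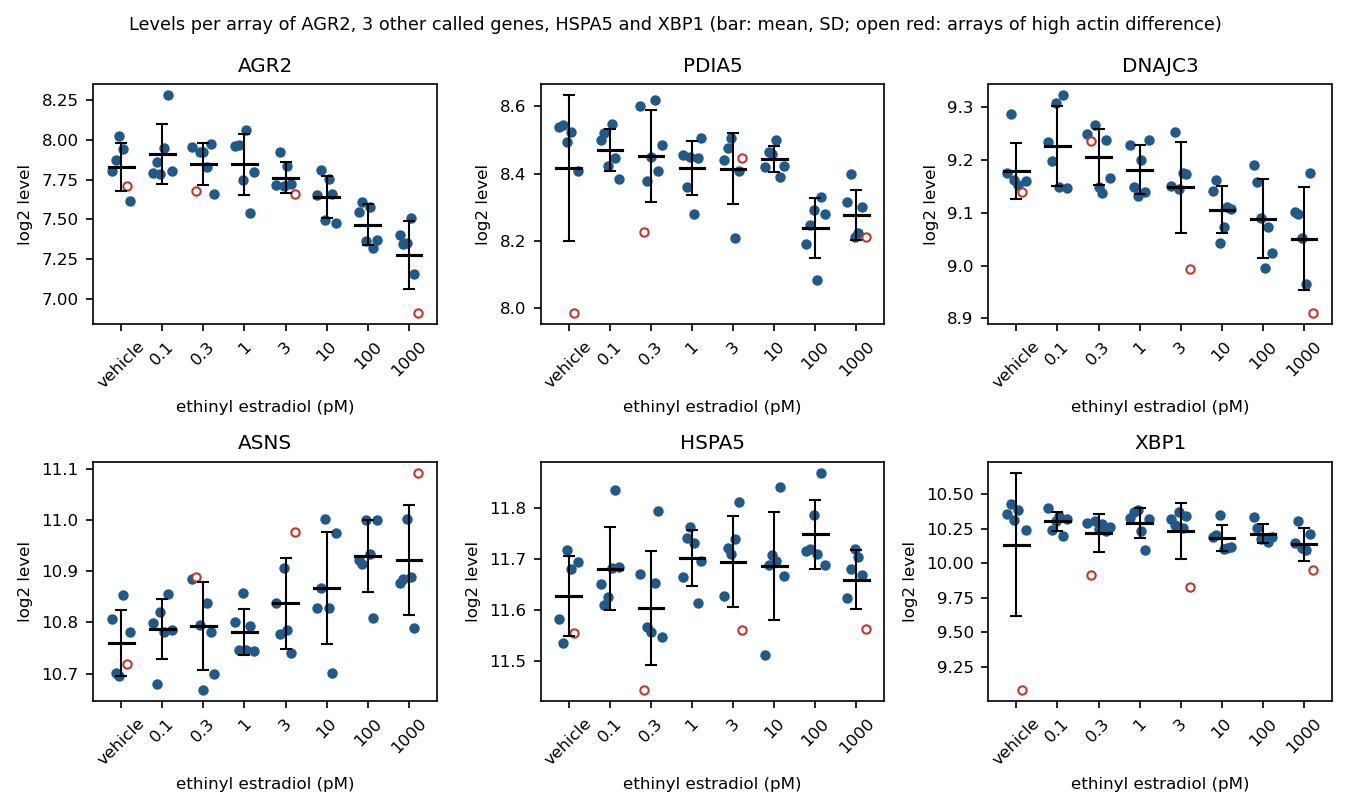
Log2 level per array (points) of AGR2, PDIA5, DNAJC3, ASNS, HSPA5 and XBP1 in vehicle and at each EE concentration (pM), with bars for the mean and SD and open red circles for the 4 arrays of high beta-actin difference. AGR2 has means of 7.28 at 1000 pM and 7.83 in vehicle, while the vehicle array of XBP1 at 9.08 lies far below the others.

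Because vehicle replicate 5 scattered widely, the 2 highest concentrations were also compared with the 2 lowest, at which no gene passed against vehicle. Replicate 2 at 0.3 pM and replicate 6 at 1000 pM, which are among the 4 arrays of high beta-actin difference, remain in it. In this comparison of 12 arrays at 100 and 1000 pM with 13 arrays at 0.1 and 0.3 pM, 4 of the 32 genes passed: AGR2, PDIA5 and DNAJC3 fell and ASNS rose. Of all genes, 13% passed, 7.91% lower and 5.05% higher. The median log2 difference was -0.05 over the 32 genes and -0.02 over all genes. AGR2 differed by -0.51 (SE 0.06, adjusted p = 1.36e-08 in limma) and ASNS by 0.14 (adjusted p = 0.00273). The epithelial markers KRT19, KRT18 and CDH1 also fell, by 0.25, 0.12 and 0.13 on the log2 scale, 3 of the 7 on that list; their part in the result was not tested.

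PDIA5, a disulfide isomerase of the ER, had a lowest, median and highest level of 8.21, 8.26 and 8.40 at 1000 pM and of 8.08, 8.26 and 8.33 at 100 pM. At 0.3 pM the values were 8.22, 8.45 and 8.62, at 0.1 pM 8.38, 8.47 and 8.55, and in vehicle 7.98, 8.51 and 8.54. The high and low concentrations overlapped, also without the 4 arrays, since replicate 2 at 1000 pM (8.40) lay above replicate 3 at 0.3 pM and replicate 6 at 0.1 pM (both 8.38). The difference of high from low concentrations was -0.20 (SE 0.05, adjusted p = 0.00114 in limma). Against vehicle, whose replicate 5 was the lowest PDIA5 array of all, 1000 pM differed by -0.14 (adjusted p = 0.251) with all arrays and by -0.21 (adjusted p = 0.00468) without the 4 arrays. The 100 against 10 pM step of PDIA5 was -0.21 both ways, with an adjusted p of 0.210 with all arrays and 0.00829 without the 4. None of the 4 arrays is in these groups, so the compared values were the same. Only the spread estimated from all groups and the adjustment over all genes differed. The highest array at 100 pM (8.33) lay below the lowest at 10 pM (8.39).

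DNAJC3, a co-chaperone of HSPA5 that also inhibits PERK, had a lowest, median and highest level of 8.91, 9.07 and 9.18 at 1000 pM and of 9.00, 9.08 and 9.19 at 100 pM. At 0.3 pM the values were 9.14, 9.24 and 9.27, at 0.1 pM 9.15, 9.22 and 9.32, and in vehicle 9.14, 9.16 and 9.29. The groups overlapped, and all 12 arrays at high concentrations lay below the mean of the low ones. The difference was -0.15 (SE 0.03, adjusted p = 0.000339 in limma), and against vehicle at 1000 pM it was -0.13 (adjusted p = 0.0631). The other 3 DNAJC3 probe sets did not pass in the same comparison (-0.09, -0.16 and -0.12), and the mean of all its probe sets gave an adjusted p of 0.265.

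An F test over the 8 groups called 3 of the 32 genes, AGR2 (adjusted p = 6.38e-07), DNAJC3 (adjusted p = 0.0269) and ASNS (adjusted p = 0.0378), where 6.99% of all genes passed.

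**Figure D3:**
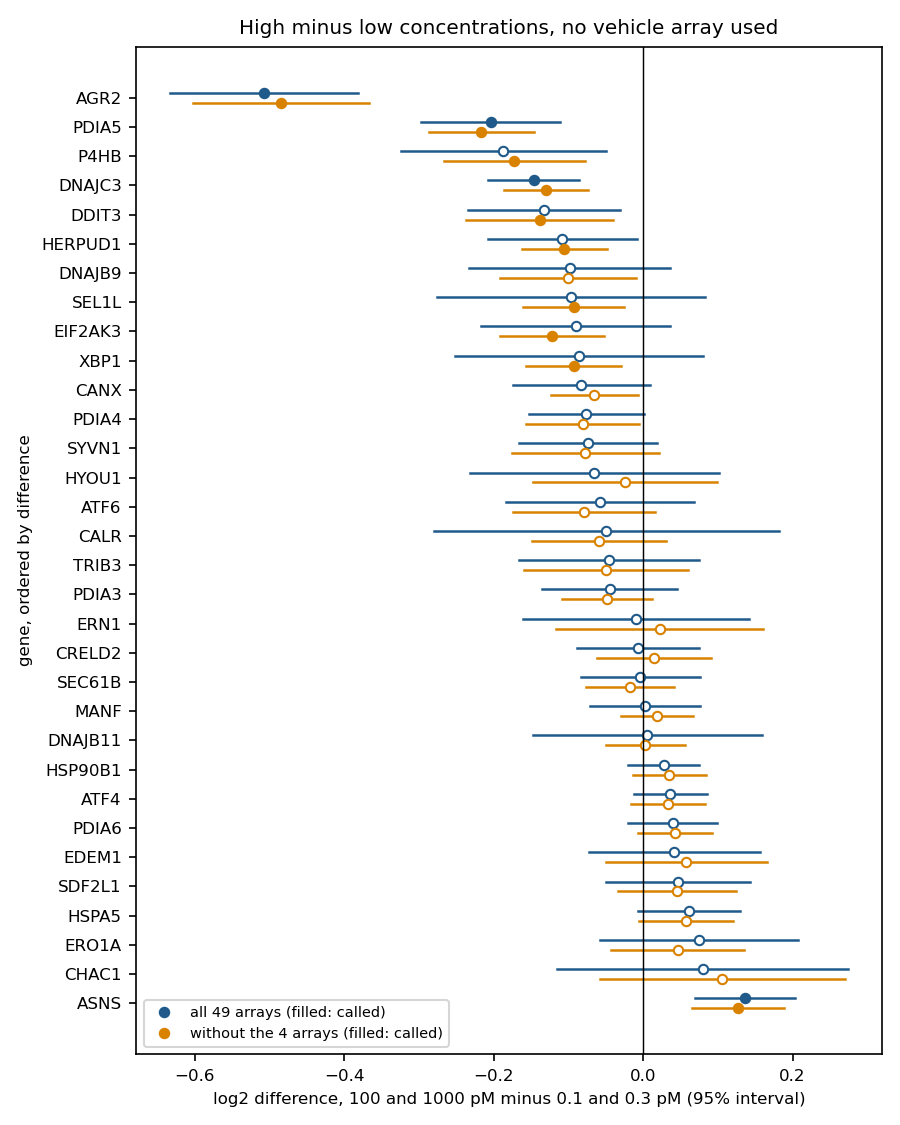
Log2 difference of 100 and 1000 pM minus 0.1 and 0.3 pM EE for the 32 genes (points, with 95% intervals), in blue with all 49 arrays and in orange without the 4 arrays of high beta-actin difference; filled points passed limma's test. With all arrays 4 points are filled and without the 4 arrays 10, and AGR2 stands apart at -0.51.

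Among the sensors, 0 of 3 passed with all arrays. ERN1, EIF2AK3 and ATF6 differed from vehicle at 1000 pM by -0.01, -0.07 and 0.04. EIF2AK3 had a low array of 7.22 in vehicle replicate 5; without the 4 arrays it passed, with differences of -0.20 at 1000 pM (adjusted p = 0.00642) and -0.19 at 10 pM (adjusted p = 0.0400), comparisons in which 8.81% and 1.39% of all genes passed.

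Of the transcription factors 0 of 3 passed with all arrays. XBP1 had a lowest, median and highest level of 9.95, 10.13 and 10.31 at 1000 pM, against 9.08, 10.34 and 10.43 in vehicle, and the difference was 0.00 (adjusted p = 0.997). The lowest vehicle array was replicate 5, and without the 4 arrays XBP1 was lower, with a difference of -0.17 (adjusted p = 0.0125). A dim other XBP1 probe set, of mean level 4.25, went the other way with all arrays and did not pass. It differed by 0.22 at 1000 pM (adjusted p = 0.607 in limma) and by 0.31 between high and low concentrations (adjusted p = 0.133). ATF4 had 11.16, 11.24 and 11.26 at 1000 pM, against 11.10, 11.26 and 11.30 in vehicle, a difference of -0.01 (adjusted p = 0.922). ATF4 is regulated at translation, which arrays do not measure. DDIT3, the stress-induced factor CHOP, had 6.17, 6.24 and 6.36 at 1000 pM, against 6.16, 6.28 and 6.52 in vehicle, a difference of -0.06 (adjusted p = 0.699).

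Of the 9 chaperones and co-chaperones, 0 passed against vehicle. HSPA5 (BiP), the abundant chaperone that also holds the sensors inactive, had 11.56, 11.67 and 11.72 at 1000 pM, against 11.53, 11.63 and 11.72 in vehicle. The groups overlapped almost fully, with a difference of 0.03 (95% interval -0.07 to 0.13, adjusted p = 0.761), and at 100 pM of 0.12 (adjusted p = 0.0937). DNAJB9, a co-chaperone that is a target of spliced XBP1, had 7.45, 7.68 and 7.77 at 1000 pM, against 7.03, 7.79 and 8.01 in vehicle, a difference of -0.06 (adjusted p = 0.782). HSP90B1, HYOU1, DNAJB11 and SDF2L1 differed at 1000 pM by -0.03, -0.20, 0.15 and 0.05. The lectin chaperones CALR and CANX differed by -0.27 and 0.04. CALR did not pass at 100 pM with all arrays (-0.43, adjusted p = 0.0827) and was lower without the 4 (-0.20, adjusted p = 0.0318), a comparison in which 11% of all genes passed.

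Of the 7 genes of disulfide formation, AGR2 alone passed at 1000 pM with all arrays, and PDIA5 passed as well, lower, without the 4 arrays. PDIA3, PDIA4, PDIA6 and P4HB differed there by 0.02, -0.04, 0.03 and -0.15, and the oxidase ERO1A by 0.07. P4HB, also a subunit of collagen prolyl hydroxylase, differed by -0.19 in the comparison of high with low concentrations (adjusted p = 0.0606) and passed without the 4 arrays (-0.17, adjusted p = 0.00539). With all arrays its other probe sets did not pass in that comparison (-0.09 and -0.08). The dimmest one was above vehicle at 1000 pM (0.37, adjusted p = 0.387 in limma).

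Of the 5 genes of degradation and translocation 0 passed with all arrays. SEL1L, the adaptor of the ubiquitin ligase SYVN1, had 8.49, 8.96 and 9.16 at 1000 pM, against 8.01, 9.03 and 9.21 in vehicle, a difference of 0.02 (adjusted p = 0.956). Its 3 probe sets that passed the filter were all lower at high than at low concentrations. A dimmer one differed by -0.22 (adjusted p = 0.0118 in limma over 22721 probe sets) and another by -0.12 (adjusted p = 0.742). The probe set used differed by -0.10 (adjusted p = 0.567). SYVN1, EDEM1 and the translocon subunit SEC61B differed at 1000 pM by -0.06, 0.03 and 0.01. HERPUD1, an ER membrane component of degradation, differed by -0.09 (adjusted p = 0.524) with all arrays and by -0.16 (adjusted p = 0.00853) without the 4. The secreted stress proteins MANF and CRELD2 differed by -0.09 and -0.02. Of the 3 ATF4 targets, TRIB3 and CHAC1 differed by -0.12 and -0.05, beside the rise of ASNS.

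Without the 4 arrays the counts were higher. At 1000 pM 5 genes were lower (AGR2, EIF2AK3, HERPUD1, PDIA5 and XBP1) and 0 higher, where 8.81% of all genes passed, 3.24% higher and 5.57% lower. AGR2 was the 1 gene shared with the call on all arrays. At 100 pM 4 passed, ASNS higher and AGR2, PDIA5 and CALR lower, where 11% of all genes passed, 3.86% higher and 7.15% lower. Between high and low concentrations 10 passed, 9 lower and 1 higher, where 21.2% of all genes passed, 8.86% higher and 12.4% lower. These were the 4 named above and DDIT3, EIF2AK3, HERPUD1, P4HB, SEL1L and XBP1. The 6 added differences ran from -0.17 (P4HB) to -0.09 (XBP1 and SEL1L). The F test called 6 genes, AGR2, PDIA5, DNAJC3, ASNS, EIF2AK3 and XBP1, where 10.5% of all genes passed. Of the steps between neighbouring concentrations, PDIA5 passed for 100 against 10 pM, where 2.04% of all genes did, and 0 of 32 passed for 3 against 1 pM, where 0.0271% did.

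Read by promoter motif, 0 of the 9 genes with an ERSE or ERSE-II passed at 1000 pM or between high and low concentrations with all arrays, where 7.21% and 13% of all genes did. Without the 4 arrays HERPUD1 and XBP1 passed in both, lower, where 8.81% and 21.2% of all genes passed. Of the 20 genes with none of the 5 motifs, AGR2 passed at 1000 pM and AGR2, DNAJC3 and PDIA5 between high and low concentrations. With the 4 arrays left out, 3 of these 20 passed at 1000 pM (AGR2, EIF2AK3 and PDIA5) and 7 between high and low concentrations (these 3, DDIT3, DNAJC3, P4HB and SEL1L). Of the 3 genes with a CARE, ASNS, which holds it at chr7:97872469-97872476, passed in both comparisons with all arrays. In the fit without them HERPUD1 and not ASNS passed at 1000 pM, and both passed between high and low concentrations, HERPUD1 lower and ASNS higher.

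The genes did not move as 1 block on the 4 arrays. Relative to their group means, 13 genes were below in all 4, among them XBP1, HSPA5, DNAJB9, DNAJB11, CANX, SEL1L and AGR2, and 8 were above in all 4: DDIT3, HYOU1, SDF2L1, CALR, P4HB, MANF, TRIB3 and CHAC1. In vehicle replicate 5 XBP1 deviated by -1.06, DNAJB11 by -0.96 and SEL1L by -0.89, against 1.12 for CALR and 0.70 for HYOU1. The SD of the 32 deviations was 0.213 to 0.499 on these arrays, against 0.0598 to 0.155 on the other 45. Over all genes tested the SD was larger on each of these 4 arrays, 0.286 to 0.561, against 0.104 to 0.206 on the other 45.

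**Figure D4:**
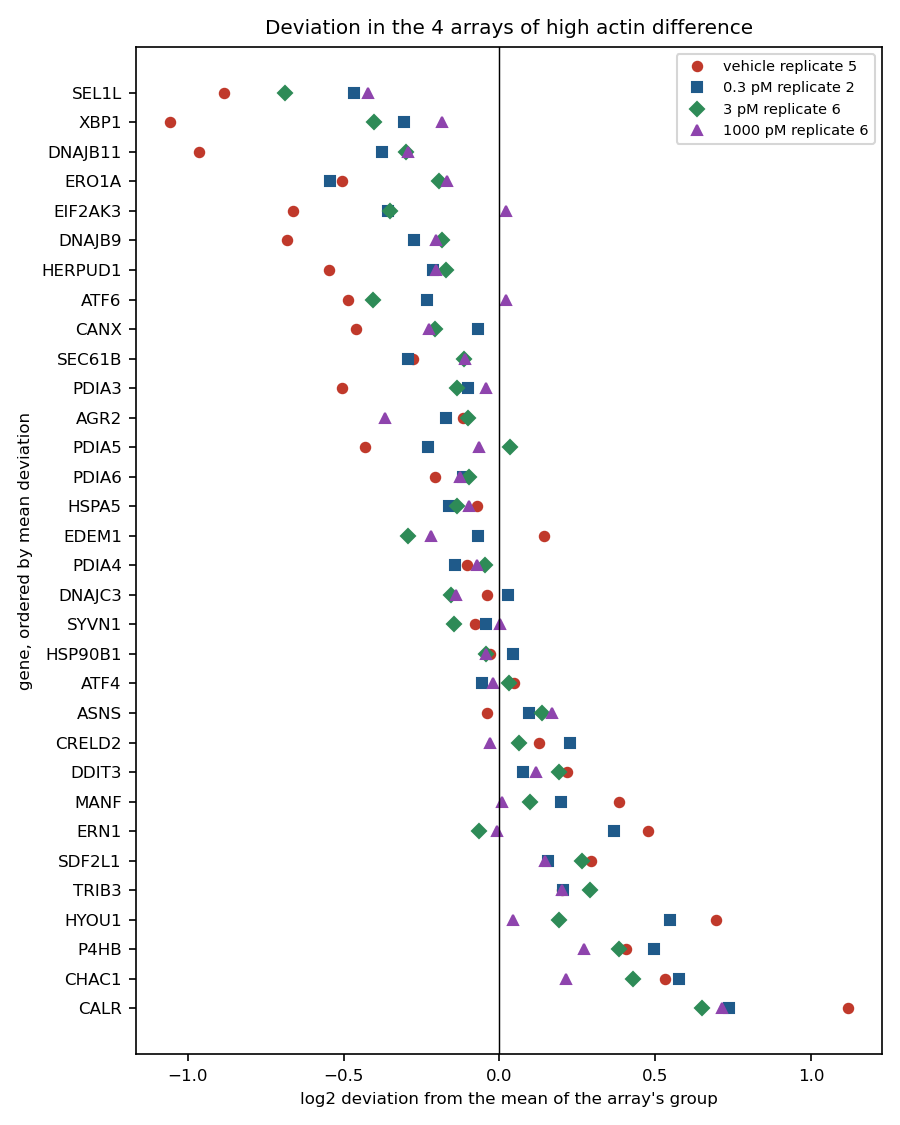
Log2 deviation of each of the 32 genes (rows) from the mean of the array's group, on the 4 arrays of high beta-actin 3′ minus 5′ difference (symbols). SEL1L, XBP1 and DNAJB11 lie lowest and CALR highest, at 1.12 in vehicle replicate 5.

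On the other 45 arrays the deviations from the group means were loosely related. The median Pearson r over the 496 pairs of the 32 genes was 0.06, beside 0.02 over all pairs of genes tested, and 14 pairs exceeded 0.5, against 94 with all 49 arrays. The share of all pairs of genes tested with r over 0.5 was not computed. The pairs named here are among the extremes of the 496. The highest pair was DNAJB9 with AGR2 (r = 0.69), followed by CANX with SEC61B (0.64), HYOU1 with CRELD2 (0.62) and CALR with P4HB (0.61). For both DNAJB9 and AGR2, 0.1 pM replicate 5 was the highest array of its group and 1 pM replicate 5 the lowest. The part of these arrays in r was not tested. AGR2 also varied with PDIA6 (0.59) and PDIA3 (0.56), and the lowest pair was HSPA5 with P4HB (-0.63). These are descriptions over arrays that share RNA quality, normalization and any unrecorded handling.

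Beyond the 32 genes, 6 lists of related genes held 144 entries, of which 130 were measured. At 1000 pM 5 of these were higher and 7 lower than in vehicle, where 2.88% of all genes were higher and 4.33% lower; without the 4 arrays 5 were higher and 8 lower, beside 3.24% and 5.57% of all genes. Between high and low concentrations 10 were higher and 10 lower, where 5.05% of all genes were higher and 7.91% lower; without the 4 arrays 13 were higher and 18 lower, beside 8.86% and 12.4%. Of 28 measured genes of the integrated stress response, 4 were higher and 1 lower at 1000 pM, and 9 higher and 1 lower between high and low concentrations, with median differences of 0.08 and 0.06, beside -0.01 and -0.02 over all genes. With the 4 arrays left out, the counts were again 4 higher and 1 lower at 1000 pM, and 11 higher and 2 lower between high and low concentrations. The amino acid transporter genes SLC7A5, SLC3A2 and SLC7A11 rose by 0.55, 0.51 and 0.51 at 1000 pM (adjusted p = 0.00103, 5.05e-08 and 0.00491), and DDIT4, an inhibitor of mTORC1 signalling, fell by 0.26 (adjusted p = 0.0071). Without the 4 arrays SLC7A11 differed by 0.32 (adjusted p = 0.0243).

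Of 25 measured genes of folding and oxidation, the thioredoxin-related TMX4 rose by 0.55 at 1000 pM (adjusted p = 3.19e-05) and DNAJC1 fell by 0.26 (adjusted p = 0.0349), and CALU fell by 0.24 between high and low concentrations. Of 18 measured genes of ER-associated degradation 0 passed at 1000 pM, and without the 4 arrays 1 was lower. Of 25 of translocation and signal peptide processing, SRPRB and TRAM2 fell by 0.13 and 0.25 at 1000 pM. Of 19 of transport between ER and Golgi, GOSR2 fell by 0.22. Without the 4 arrays 2 of the 19 were lower at 1000 pM and 2 between high and low concentrations. Of all genes, 5.57% and 12.4% were lower there. KDELR3 was lower in both (-0.23 and -0.19, adjusted p = 5.13e-05 and 6.05e-07 in limma). With all arrays KDELR3 did not pass (-0.08 and -0.18, adjusted p = 0.701 and 0.0713). Of 16 regulators near the sensors, CREB3 and MAP3K5 fell by 0.22 and 0.33. Without the 4 arrays the MAP3K5 difference was -0.28 and did not pass (adjusted p = 0.0674). BBC3 fell by 0.27 between high and low concentrations. In that comparison with all arrays 2 genes of folding, 3 of translocation and 4 regulators were lower, and 1 of folding was higher. On the lists of degradation and of ER to Golgi transport 0 passed. Of all genes, 7.91% were lower and 5.05% higher. TRAM2 and CREB3 were among those lower (-0.18 and -0.19). SRPRB, GOSR2 and MAP3K5 did not pass there (-0.07, -0.10 and -0.11, adjusted p = 0.0987, 0.0887 and 0.319 in limma).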

How the data were processed

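The authors deposited log2 expression values of Affymetrix HT HG-U133 Plus PM probe sets, made with GCRMA and Partek per the submitters' processing notes, with no version given. The number of arrays limits the precision. Of 54715 probe sets, 40920 had 1 gene symbol in the platform annotation, 864 several and 12931 none. Probe sets above a log2 level of 4 on at least 6 arrays were kept, and the one of highest mean stood for its gene, which left 11075 genes.

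The 8 group means were fitted to all 49 arrays with limma 3.58.1 (R 4.3.3, statmod 1.5.0) with an intensity trend in the prior, and p-values were adjusted by Benjamini-Hochberg over all genes within a comparison, with a threshold of 0.05. Dose curves with a slope of 1 were fitted by least squares on log2 levels, with 95% intervals from the residual sums of squares. The 4 arrays left out in places had a beta-actin 3′ minus 5′ difference more than 4 median absolute deviations above the median. The calculations were tested on simulated data. Figures were drawn with matplotlib 3.10.9.

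The genes, lists, comparisons and alternatives were chosen with earlier results of these data known. All 32 genes are named, with lowest, median and highest levels for AGR2, XBP1, HSPA5, DNAJB9, ATF4, DDIT3, SEL1L and called genes; from the other lists up to 3 called genes per direction are named. Alternatives changed the filter, normalization, prior, array weights, probe sets, arrays, block and threshold. Same-numbered arrays deviated together, every pair with r over 0.1, only for 3 against 1 pM (lowest 0.206), 10 against 3 pM (0.22) and 100 against 10 pM (0.271); the pairing comes from the values, not from the labels.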

Additional observations from a re-analysis of the deposited data

Results flagged for a closer look

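In 45 of 256 sets of a gene and a group, 1 array lay farther from its neighbours than Dixon's 95% critical value allows, which chance does for about 1 group in 20. Of these 32 were on the 4 arrays of high beta-actin 3′ minus 5′ difference. Values are log2 levels, and no cause was tested. Vehicle replicate 5 was the lowest of its group for EIF2AK3 (7.22), ATF6 (6.94), XBP1 (9.08), DNAJB9 (7.03), DNAJB11 (9.11), CANX (10.98), PDIA3 (10.65), PDIA5 (7.98), PDIA6 (11.07), SEL1L (8.01), HERPUD1 (8.18) and SEC61B (10.38) and the highest for SDF2L1 (8.15), CALR (10.74) and MANF (10.29). 0.3 pM replicate 2 was the lowest of its group for XBP1 (9.92), DNAJB11 (9.81), SEL1L (8.56), HERPUD1 (8.59) and SEC61B (10.38) and the highest for CALR (10.10), P4HB (11.73) and CRELD2 (10.27). 3 pM replicate 6 was the lowest of its group for XBP1 (9.83), DNAJB11 (9.90), CANX (11.29) and SEL1L (8.24) and the highest for CALR (10.04), P4HB (11.51) and MANF (9.94). 0.1 pM replicate 5 was the highest for DDIT3 (6.43), HSPA5 (11.84) and AGR2 (8.28). 1 pM replicate 5 was the lowest of its group for DNAJB9 (7.496) and the highest for SYVN1 (5.21). 1000 pM replicate 6 was the lowest of its group for DNAJB11 (9.93) and the highest for CALR (10.06). Single values stood apart as the lowest EIF2AK3 (7.87) at 1 pM replicate 3, lowest HSP90B1 (12.05) at 0.1 pM replicate 3, highest HSP90B1 (12.35) at 1 pM replicate 4, highest DNAJB11 (10.49) at 10 pM replicate 3, highest DNAJC3 (9.29) in vehicle replicate 2, lowest PDIA5 (8.21) at 3 pM replicate 4, lowest ERO1A (8.26) at 10 pM replicate 4 and highest SYVN1 (5.29) at 0.3 pM replicate 4.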

How the results depend on the processing

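AGR2 at 1000 pM against vehicle kept its direction and its call under all 13 other settings (-0.57 to -0.50, adjusted p at most 0.00946) and when each array was left out in turn (-0.59 to -0.48). The count of the 32 genes called at 1000 pM, 2 in the fit reported, was 8 with array weights, 5 without the 4 arrays of high beta-actin difference, 5 with that difference as a covariate, 1 with only the compared groups and 1 at a threshold of 0.01, while the count over all genes, 799, was 1127, 976, 1141, 308 and 485 under these settings in the same order. At 100 pM the count of 2 was 4 without the 4 arrays, 1 with only the compared groups and 1 at a threshold of 0.01 (all genes 1220, 290 and 482, against 1120). Between 100 and 1000 pM and 0.1 and 0.3 pM the count of 4 was 11 with array weights, 10 without the 4 arrays and 7 with the covariate. For the F test the count of 3 was 7 with array weights, 6 without the 4 arrays, 5 with the covariate, and 1 each without a filter and at a threshold of 0.01 (all genes 1516, 1166, 1321, 741 and 532, against 774). A stricter threshold lowers a count by construction; for the other settings the cause was not tested.

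Leaving out 1 array at a time gave counts of 1 to 4 at 1000 pM (1 without 1000 pM replicate 3 or 6 or vehicle replicate 2 or 3, 4 without vehicle replicate 5, 3 without 1000 pM replicate 5), 2 to 5 at 100 pM (5 without vehicle replicate 4, 4 without vehicle replicate 6, 3 without 100 pM replicate 2 or vehicle replicate 3 or 5), 4 to 5 between high and low concentrations (5 in 7 of 25 fits), and 1 to 4 for the F test (1 without 1000 pM replicate 6, 4 without 3 pM replicate 4, 0.3 pM replicate 2 or vehicle replicate 5, and 2 in 13 other fits). The counts over all genes in these fits are not given here. With the replicate number as a block, 3 of the genes described here were called at 1000 pM (DNAJC3 added) and 2 at 100 pM. Between high and low concentrations 4 were called, and 0 at any single step, as without the block. Over all genes the counts rose with the block, to 931 at 1000 pM, 1302 at 100 pM and 1682 between high and low concentrations. Without the block they were 799, 1120 and 1435. For the steps 3 against 1, 10 against 3 and 100 against 10 pM they were 2, 17 and 130, against 1, 17 and 109. In the fit reported, the count of all genes called between high and low concentrations was 1435. It was 2973 with array weights, 2748 with the covariate and 2349 without the 4 arrays.

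The limits are those of 1 cell line, 1 exposure time and small differences. No difference is known for protein, splicing or translation.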
